A study of Mus musculus with 19 samples.

Results

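The 35 genes described here sense DNA damage or repair it. The rule that chose them is a list of names with no threshold on a measured value, and each was matched by its symbol in a table of 55414 mouse genes, of which 35160 had at least 1 read. By role, 9 belong to sensing and signaling, 7 to end joining, 7 to homologous recombination, 6 to base excision and single-strand break repair, 3 to nucleotide excision repair, 2 to translesion synthesis and 1 to the Fanconi anemia pathway. All 35 passed the filter on low counts and are among the 17617 genes tested.

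The RNA came from abdominal aortas of male Apoe-/- mice on a C57Bl/6J background, aged 8 to 10 weeks when an angiotensin II (AngII) pump was implanted, a model of abdominal aortic aneurysm. The D-3 IR group (7 libraries) received a single total-body dose of 1 Gy of X-rays 3 days before the pump, the D+1 IR group (7 libraries) received the same dose 1 day after it, and the control group (5 libraries) was not irradiated. Controls carried the same genotype and pump and had the same anesthesia, so no library shows an aorta without AngII or with normal Apoe. Mice of each group were killed either early or late in the AngII infusion, and the labels do not give the day for the sequenced aortas. In either case the irradiated aortas were taken days or weeks after the dose, so the first hours after irradiation are not covered.

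Libraries held 25839001 to 97083681 counted reads (median 39641963), and poly(A) RNA was sequenced. The aortic label was checked on smooth muscle markers: Acta2 ranged from 698 to 18521 CPM (read counts scaled to a common library size) and Myh11 from 176 to 5262, so smooth muscle RNA was found in every library, in very different amounts. The samples also held other tissues. The mean log2 CPM of a white adipocyte list ran from 4.23 (control 6) to 9.40 (D+1 IR 2), that of a contractile smooth muscle list from 5.81 (D+1 IR 3) to 9.75 (control 6), and that of a mitosis list from 0.67 (control 8) to 4.05 (D-3 IR 13). Library D-3 IR 10 was the highest in skeletal muscle and lymphocyte lists (9.32 and 4.40), followed by D-3 IR 15 in the first (8.05) and D+1 IR 3 in the second (3.54). D+1 IR 3 was also the lowest in a fibroblast list (6.80, next 8.39 in D-3 IR 10). In edgeR no member was called with D-3 IR 10 and D+1 IR 3 or without them, and further results without them are given below. Why they differ was not tested. Libraries 1, 2 and 3 of D+1 IR carry the number 41 in their deposited file names and the other 16 carry 61, and what these numbers mark is not given. In bulk tissue, fewer cells of a type and less RNA per cell cannot be told apart.

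Ionizing radiation breaks DNA strands and oxidizes bases. A double-strand break is bound by the Mre11-Rad50-Nbn complex or by the Ku heterodimer (Xrcc5 and Xrcc6), the kinases Atm, Atr and Prkdc signal it, and the ends are then either joined directly or copied from the sister chromatid by homologous recombination, which needs a replicated chromosome. Damaged bases and single-strand breaks are handled by base excision repair, bulky lesions by nucleotide excision repair. Most of this machinery is controlled through protein modification and recruitment to damage, while DDB2, XPC and POLH are known transcriptional targets of p53 in human cells.

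The members differed widely in abundance, with Parp1 and Nbn at the top and most of homologous recombination at the bottom. Levels given per length are CPM per kilobase of exon, as mean ± SD over the 19 libraries. The highest was Parp1, the enzyme that detects strand breaks and builds poly(ADP-ribose), at 11.4 ± 1.73, above 79.0% of the tested genes. Nbn, the signaling subunit of the Mre11-Rad50-Nbn complex, stood at 9.75 ± 1.88, Xrcc6 at 7.58 ± 2.93 and Ercc1, a subunit of the nuclease of nucleotide excision repair, at 7.57 ± 1.69. At the other end stood Brca1, which promotes end resection, at 0.314 ± 0.16, Rad54l, a motor protein of strand exchange, at 0.269 ± 0.129, Fancd2, which marks interstrand crosslinks, at 0.216 ± 0.09, Brca2 at 0.187 ± 0.0492 and its partner Palb2 at 0.138 ± 0.0595, above 7.4% of the tested genes. In no case did neighbors in this order differ beyond their SDs. Sensing genes other than Nbn stood lower in the order, with Atm and Atr above only 24.4% and 15.2% of the tested genes. The rank of Atr depends on the length used, since its exons together span 23629 bases and its longest transcript only 8102.

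The class medians of these levels were 4.59 CPM per kilobase for base excision and single-strand break repair, 3.25 for nucleotide excision repair, 1.74 for translesion synthesis, 1.73 for end joining, 1.67 for sensing and signaling and 0.314 for homologous recombination. Homologous recombination was itself split: Xrcc3 (2.57 ± 0.859) and Rad52 (1.16 ± 0.162) were well above Brca1, Rad54l, Brca2 and Palb2, and Xrcc2 (0.753 ± 0.123) lay between. The base excision genes Polb, the gap-filling polymerase, at 5.49 ± 0.858, Apex1, the abasic site endonuclease, at 5.19 ± 1.02, Xrcc1, the scaffold of single-strand break repair, at 4.00 ± 0.603 and Ogg1, the glycosylase for oxidized guanine, at 3.52 ± 0.368 sat close together. Prkdc, the catalytic kinase of end joining, was low at 0.891 ± 0.158 beside its Ku partners Xrcc6 and Xrcc5 (5.32 ± 1.33).

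Some levels per length are uncertain, because reads from a stretch shared with another gene were not assigned and the reads carried no usable strand information. Genes on the opposite strand covered 61.7% of the exon bases of Apex1 (Pip4p1), 25.1% of Lig3 (Rffl), 23.8% of Ddb2 (Acp2), 15.4% of Rad54l (Lrrc41), 15.0% of Trp53bp1 (Tubgcp4), 10.6% of Ogg1 (Camk1) and 7.69% of Xrcc6 (Desi1). Rnf8 shared 13.2% of its exon bases with Gm28043 on its own strand. With lengths taken from the longest transcript instead of all exons, the class medians became 6.20 for base excision repair, 4.11 for nucleotide excision repair and 0.453 for homologous recombination. Both ends of the order changed as well: Ercc1 was then the highest, at 17.1, ahead of Parp1 at 15.5, and Brca2 the lowest, at 0.238, below Palb2 at 0.270.

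**Figure D1:**
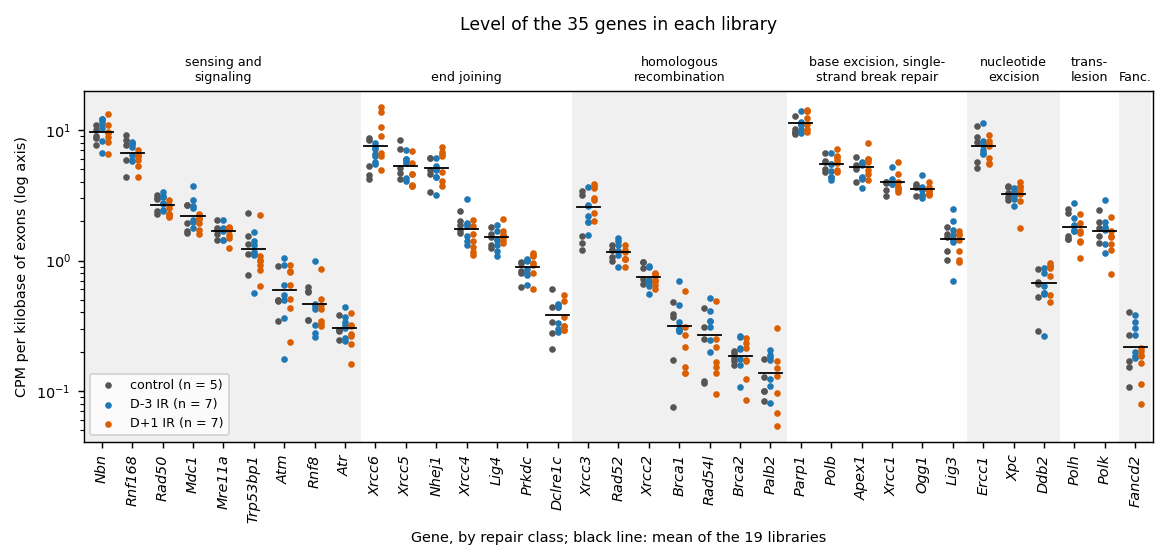
Levels of the 35 members in CPM per kilobase of exon on a log axis, grouped by role, with 1 point for each of the 19 libraries colored by group and a black line at their mean. Parp1 (mean 11.4) and Nbn (9.75) sit highest and Palb2 (0.138) lowest, and the colors of the 3 groups are mixed within nearly every gene.

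From library to library most members were steady. The median SD of their log2 CPM over the 19 libraries was 0.34, compared with 0.57 for all tested genes, and 31 of 35 had a smaller SD than the median of genes of like level (within 0.5 log2 CPM). Ogg1 was the steadiest, with an SD of 0.14, smaller than that of all but 0.8% of the tested genes, and its mean was 7.86 ± 0.627, 7.69 ± 1.11 and 7.60 ± 0.655 CPM in control, D-3 IR and D+1 IR aortas (SD, n = 5, 7 and 7). The most variable was Brca1, with an SD of 0.78, and its CPM ran 9.21-fold from 0.647 in control 8 to 5.96 in D-3 IR 13. The biological coefficient of variation that edgeR estimated had a median of 0.225 in base excision repair, 0.264 in nucleotide excision repair, 0.266 in sensing, 0.311 in end joining and 0.381 in homologous recombination, compared with 0.406 over all tested genes. Spread also depended on level. Genes of the level of Brca1 had a median SD of 0.81, and those of the level of Parp1 0.36.

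Irradiation timing was compared in 3 pairs of groups, and both irradiated groups together were set against control. With edgeR's quasi-likelihood test and Benjamini-Hochberg adjustment over all 17617 genes, none of the 35 members reached an adjusted p under 0.05. This held for D-3 IR versus control (0.0% of all genes were called), D+1 IR versus control (0.0%), D-3 IR versus D+1 IR (0.0%), both irradiated groups versus control (0.0%) and the test for any group difference (0.0%). DESeq2 also called no member. At an unadjusted p under 0.05 edgeR found 0 members in D-3 IR versus control (1.32% of all genes), 1 in D+1 IR versus control (7.11%), 2 in D-3 IR versus D+1 IR (11.5%), 0 in both groups versus control (1.82%) and 1 in the test of any difference (6.65%). Limma voom with sample quality weights called 2 members in D-3 IR versus D+1 IR, Xrcc6 and Fancd2, in a comparison where it called 13% of all genes. The comparisons with control share the 5 control libraries, so their values are given side by side only.

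What the data allow is a bound on the size of a change at the time of collection. In D-3 IR versus control, the 95% interval of the log2 fold change lay within a 2-fold change in either direction for 32 of 35 members, all but Brca1, Palb2 and Rad54l. In D+1 IR versus control it did so for 26 members, and in D-3 IR versus D+1 IR for 31. Within a 1.5-fold change it lay for 21, 17 and 15 members in the same order of comparisons. Each interval is for a single gene and was not adjusted for the number of members. The fitted log2 fold changes of D-3 IR versus control ran from -0.25 (Trp53bp1) to 0.46 (Rad54l), those of D+1 IR versus control from -0.42 (Fancd2) to 0.61 (Xrcc6), and those of D-3 IR versus D+1 IR from -0.51 (Xrcc6) to 0.69 (Fancd2). Their medians were 0.06, -0.07 and 0.11 over the members, beside -0.03, -0.04 and -0.04 over all tested genes, with 21, 14 and 23 of 35 members above 0, beside 43.1%, 44.9% and 45.4% of all tested genes. For both irradiated groups together the median was 0.00 and 18 members were above 0 (42.2% of all tested genes).

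By role the classes did not share a direction. For homologous recombination the median log2 fold change was 0.15 in D-3 IR versus control, -0.08 in D+1 IR versus control and 0.14 in D-3 IR versus D+1 IR, with 6, 2 and 6 of 7 genes above 0. End joining gave -0.06, 0.09 and -0.11, with 3, 5 and 3 of 7 genes above 0. Base excision repair gave 0.04, 0.09 and -0.05, and nucleotide excision repair 0.01, -0.05 and -0.03. These medians are descriptions and were not tested. Without the 3 D+1 IR libraries of file series 41, the end joining median in D-3 IR versus D+1 IR was 0.01 and that of base excision repair 0.04. Among the 35 single members, 5 then had the other sign in D+1 IR versus control and 4 between the irradiated groups, with a median shift of 0.08 and 0.07 and the largest shift in Xrcc6. The largest fitted values were then those of Xrcc3 (0.43 ± 0.35) in D+1 IR versus control and Rad54l (0.51 ± 0.47) between the irradiated groups, and none was at an unadjusted p under 0.05 in edgeR.

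**Figure D2:**
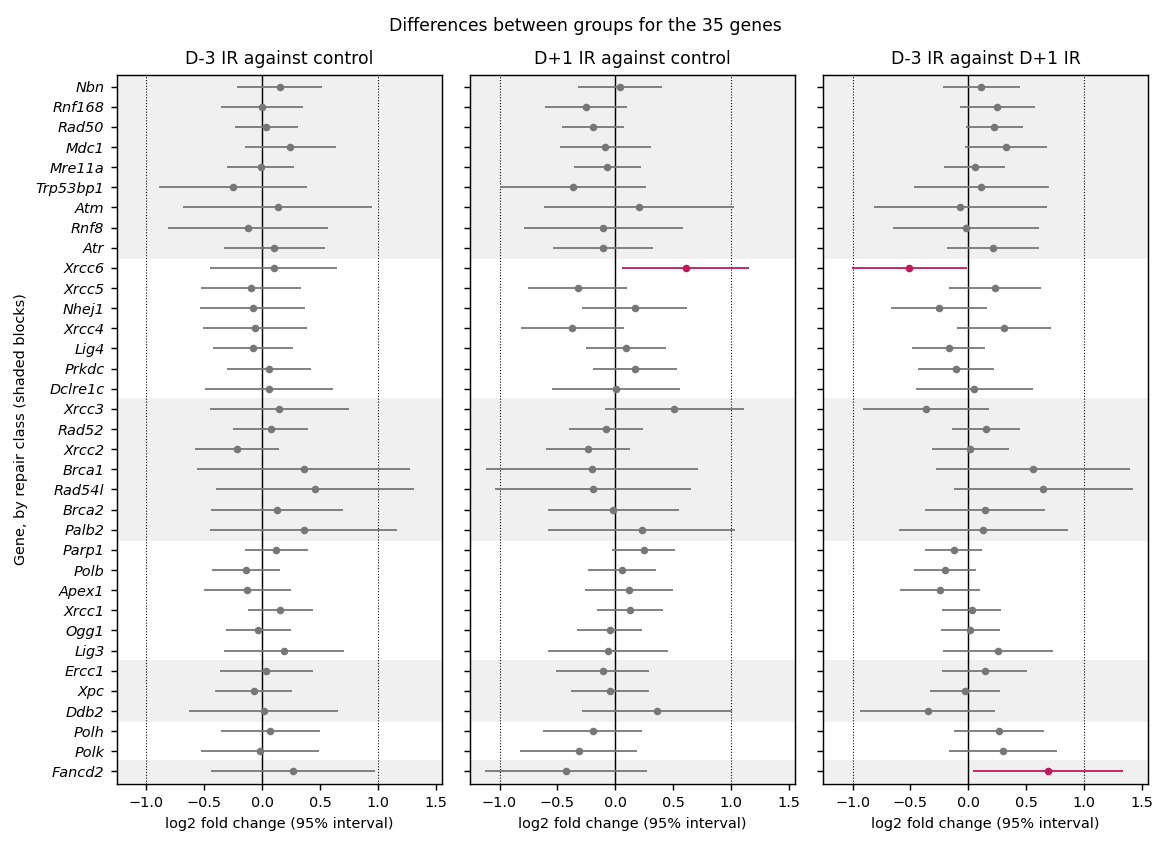
Log2 fold changes of the 35 members with 95% intervals from edgeR, ordered by role, for D-3 IR versus control, D+1 IR versus control and D-3 IR versus D+1 IR. Xrcc6 reaches 0.61 and -0.51 in the last 2 comparisons and Fancd2 -0.42 and 0.69, and no adjusted p is under 0.05.

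Among the sensors and signal carriers, Nbn was at 22.9, 19.5, 27.7, 25.2 and 22.1 CPM in the 5 control libraries (4, 5, 6, 8 and 9, in this order throughout), at 16.8 to 30.8 (median 28.0) in D-3 IR and at 16.6 to 33.4 (median 24.0) in D+1 IR. The 3 groups overlapped almost wholly, and the log2 fold change (± SE) was 0.15 ± 0.18 for D-3 IR and 0.04 ± 0.17 for D+1 IR versus control. Rad50, the coiled-coil partner of Nbn, was at 12.9, 12.3, 17.2, 16.0 and 16.1 CPM in control, at 13.0 to 17.9 (median 14.8) in D-3 IR and at 11.5 to 15.6 (median 12.3) in D+1 IR. Its log2 fold change was 0.23 ± 0.12 in D-3 IR versus D+1 IR (edgeR adjusted p = 0.457), with overlapping groups. Mdc1, the adaptor that binds phosphorylated H2AX, was at 14.3, 12.4, 19.7, 12.1 and 19.8 CPM in control, at 13.2 to 27.5 (median 18.6) in D-3 IR and at 11.8 to 16.9 (median 15.5) in D+1 IR, a difference of 0.33 ± 0.17 between the irradiated groups (adjusted p = 0.457) that was 0.29 ± 0.21 without file series 41 and 0.11 ± 0.17 with the mitosis list as a covariate. Mdc1 was itself related to that list in these libraries, as described below, so the covariate value follows in part from that relation.

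Atr, the kinase of stalled forks and resected ends, was at 6.78, 5.84, 9.00, 6.97 and 6.94 CPM in control, at 5.67 to 10.4 (median 7.57) in D-3 IR and at 3.83 to 9.29 (median 6.43) in D+1 IR. Atm, the kinase of double-strand breaks, averaged 5.65 ± 2.22, 6.20 ± 3.14 and 6.50 ± 2.57 CPM in control, D-3 IR and D+1 IR aortas (SD, n = 5, 7 and 7). Neither kinase transcript differed between groups by more than its spread. The ubiquitin ligase Rnf168 averaged 31.6 ± 8.69, 31.6 ± 4.53 and 26.5 ± 3.98 CPM, the nuclease Mre11a 10.1 ± 1.32, 10.0 ± 1.25 and 9.64 ± 1.21, the ligase Rnf8 5.79 ± 1.57, 5.33 ± 2.91 and 5.40 ± 2.19, and Trp53bp1, which shields ends from resection, 20.1 ± 8.08, 16.9 ± 4.74 and 15.6 ± 7.35. Of the 9 sensing genes, 5 were above 0 in D-3 IR versus control and 2 in D+1 IR versus control, with medians of 0.03 and -0.10.

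Within end joining the largest fitted differences were those of Xrcc6. It encodes Ku70, which with Ku80 (Xrcc5) forms the ring that threads onto broken ends. Xrcc6 was at 37.9, 38.6, 18.9, 20.2 and 23.6 CPM in control, at 24.4 to 36.0 (median 29.4) in D-3 IR and at 22.0 to 67.1 (median 40.3) in D+1 IR. The highest 2 libraries were D+1 IR 1 and 2 with 67.1 and 62.0, and the remaining D+1 IR libraries, at 22.0 to 47.6, overlapped both other groups. The log2 fold change was 0.61 ± 0.26 in D+1 IR versus control (edgeR adjusted p = 0.644) and -0.51 ± 0.24 between the irradiated groups (adjusted p = 0.433, D-3 IR minus D+1 IR). Without the 3 libraries of file series 41 these values were 0.21 ± 0.26 and -0.10 ± 0.25. With the white adipocyte list as a covariate they were 0.16 ± 0.22 and -0.25 ± 0.18. Xrcc6 was itself related to that list in these libraries, as described below, and the list was measured after irradiation. The covariate values follow in part from that relation, as do those of Xrcc3 and Parp1 below, and their cause was not tested. The 3 libraries of file series 41 were the highest on that list, so the values without them are not independent of the covariate values.

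Across the libraries Xrcc5 ran differently from its partner. It was at 11.9, 10.8, 21.3, 18.2 and 13.0 CPM in control, at 10.4 to 17.9 (median 14.5) in D-3 IR and at 9.53 to 17.6 (median 11.7) in D+1 IR. Its log2 fold change was -0.09 ± 0.21 and -0.33 ± 0.21 versus control, the latter -0.16 ± 0.23 without file series 41. D+1 IR 1, the library highest in Xrcc6, was the lowest of all in Xrcc5, and control 6, the lowest in Xrcc6, was the highest in Xrcc5.

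The other end joining genes had smaller fitted differences. Xrcc4, the scaffold of the ligation complex, was at 6.89, 7.16, 10.1, 8.45 and 7.95 CPM in control, at 5.58 to 12.5 (median 7.70) in D-3 IR and at 4.65 to 8.66 (median 5.94) in D+1 IR, with log2 fold changes of -0.06 ± 0.21 and -0.37 ± 0.21 versus control, the latter -0.21 ± 0.25 without file series 41. Dclre1c, the hairpin-opening nuclease Artemis, was at 2.58, 3.13, 1.94, 4.13 and 5.59 CPM in control, at 2.63 to 4.36 (median 4.08) in D-3 IR and at 2.73 to 5.11 (median 2.96) in D+1 IR, so control aortas spanned both irradiated groups. Prkdc averaged 11.1 ± 1.86, 11.6 ± 1.88 and 12.4 ± 2.50 CPM in control, D-3 IR and D+1 IR, Lig4, the ligase, 7.84 ± 1.19, 7.44 ± 1.43 and 8.35 ± 1.22, and its stimulating factor Nhej1 5.64 ± 1.29, 5.32 ± 1.02 and 6.33 ± 1.61.

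Brca1 and Rad54l, both of homologous recombination, had the widest spreads of the members (SD of log2 CPM 0.78 and 0.72). Both were below the median of genes of like level (0.81 and 0.84). Rad52 and Xrcc2 of the same class were steady (0.20 and 0.23). Rad54l was at 0.921, 1.94, 3.32, 0.894 and 2.39 CPM in control, at 1.53 to 3.98 (median 2.66) in D-3 IR and at 0.727 to 3.80 (median 1.28) in D+1 IR. The control libraries, spread from 0.894 to 3.32, overlapped both irradiated groups, and the log2 fold change was 0.46 ± 0.41 for D-3 IR and -0.19 ± 0.40 for D+1 IR versus control, and 0.65 ± 0.37 between them (adjusted p = 0.475). Brca1 was at 1.47, 3.32, 3.14, 0.647 and 4.11 CPM in control, at 2.45 to 5.96 (median 2.57) in D-3 IR and at 1.17 to 5.02 (median 1.87) in D+1 IR, with log2 fold changes of 0.36 ± 0.44 and -0.20 ± 0.44 versus control, the latter 0.09 ± 0.51 without file series 41. Its D+1 IR range was set by library 20, at 5.02, while the other 6 D+1 IR libraries lay at 2.65 or below.

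Xrcc3 was at 9.43, 8.73, 3.34, 3.73 and 4.27 CPM in control, at 4.35 to 10.1 (median 6.00) in D-3 IR and at 5.48 to 10.6 (median 8.32) in D+1 IR. Control libraries 4 and 5 were high in both Xrcc3 and Xrcc6, and the other 3 controls were low in both. Its log2 fold change was 0.15 ± 0.29 and 0.51 ± 0.29 versus control (edgeR adjusted p = 0.644 in D+1 IR), and the latter was 0.43 ± 0.35 without file series 41 and 0.16 ± 0.25 with the white adipocyte list as a covariate. Palb2, the bridge between Brca1 and Brca2, was at 0.737, 0.610, 0.938, 0.740 and 1.30 CPM in control, at 0.595 to 1.51 (median 1.26) in D-3 IR and at 0.397 to 2.22 (median 0.955) in D+1 IR, and rested on 18 to 107 reads a library. Brca2 averaged 2.48 ± 0.239, 2.71 ± 0.762 and 2.45 ± 0.83 CPM, Rad52 6.65 ± 0.748, 7.01 ± 1.15 and 6.30 ± 0.787, and Xrcc2 4.40 ± 0.746, 3.78 ± 0.692 and 3.74 ± 0.373.

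Fancd2 gave the largest difference between the irradiated groups. It was at 0.847, 1.35, 3.19, 1.20 and 2.12 CPM in control, at 1.42 to 3.06 (median 2.15) in D-3 IR and at 0.628 to 1.69 (median 1.46) in D+1 IR. D-3 IR and D+1 IR overlapped between 1.42 and 1.69 CPM, and control, from 0.847 to 3.19, overlapped both. The lowest of all libraries was D+1 IR 2, at 0.628. The log2 fold change between the irradiated groups (D-3 IR minus D+1 IR) was 0.69 ± 0.31 (edgeR adjusted p = 0.423), with -0.42 ± 0.33 for D+1 IR versus control. With the mitosis list as a covariate the difference between the irradiated groups was 0.25 ± 0.30, and without file series 41 it was 0.46 ± 0.35. Fancd2 was itself related to the mitosis list in these libraries, as described below, and the list was measured after irradiation. The covariate value follows in part from that relation, and its cause was not tested.

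Base excision and single-strand break repair had the lowest median coefficient of variation of the classes. Parp1 was at 67.5, 54.3, 50.8, 51.2 and 49.0 CPM in control, at 50.0 to 74.1 (median 59.5) in D-3 IR and at 50.9 to 75.3 (median 65.8) in D+1 IR. Control 4 was above the other 4 controls and inside both irradiated groups, and the log2 fold change was 0.12 ± 0.13 and 0.25 ± 0.13 versus control (adjusted p = 0.644 in D+1 IR), the latter 0.09 ± 0.14 without file series 41 and 0.11 ± 0.13 with the white adipocyte covariate. Polb was at 22.4, 26.3, 18.7, 19.9 and 22.9 CPM in control, at 16.4 to 26.4 (median 19.3) in D-3 IR and at 18.9 to 28.2 (median 23.2) in D+1 IR. Lig3, the ligase that works with Xrcc1, was at 8.58, 7.30, 11.6, 10.9 and 13.1 CPM in control, at 5.09 to 18.0 (median 11.4) in D-3 IR and at 7.06 to 12.3 (median 10.4) in D+1 IR. Both genes overlapped across all groups. Xrcc1 averaged 21.7 ± 2.24, 24.2 ± 2.74 and 23.7 ± 4.80 CPM and Apex1 7.37 ± 1.14, 6.74 ± 1.15 and 8.01 ± 1.78.

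Of the nucleotide excision genes, Ercc1 was at 16.0, 27.5, 25.0, 17.8 and 33.5 CPM in control, at 20.3 to 35.2 (median 23.9) in D-3 IR and at 17.2 to 28.6 (median 23.5) in D+1 IR, with log2 fold changes of 0.04 ± 0.19 and -0.11 ± 0.19. Ddb2, a lesion-binding subunit, was at 2.36, 1.80, 1.88, 1.45 and 0.795 CPM in control, at 0.723 to 2.42 (median 1.55) in D-3 IR and at 1.31 to 2.63 (median 2.41) in D+1 IR, with log2 fold changes of 0.01 ± 0.31 and 0.36 ± 0.31, the latter 0.25 ± 0.37 without file series 41. Xpc, the lesion detector of global repair, averaged 18.4 ± 2.01, 17.5 ± 1.77 and 17.8 ± 4.03 CPM. None of these 3 genes separated the groups. The translesion polymerases Polh and Polk, which copy past damaged bases, overlapped between all groups. Polh was at 8.77, 9.18, 13.8, 8.72 and 14.9 CPM in control, at 10.0 to 16.4 (median 11.0) in D-3 IR and at 6.18 to 13.5 (median 9.60) in D+1 IR. Polk was at 8.55, 7.56, 13.5, 11.0 and 9.91 CPM in control, at 6.35 to 16.1 (median 9.65) in D-3 IR and at 4.39 to 11.9 (median 8.48) in D+1 IR. Against control their log2 fold changes were 0.07 ± 0.20 and -0.02 ± 0.24 for D-3 IR, and -0.20 ± 0.20 and -0.32 ± 0.24 for D+1 IR, the last 2 being -0.11 ± 0.23 and -0.13 ± 0.26 without file series 41.

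Since tissue content differed widely between libraries, each member was set against the mean log2 CPM of 5 marker lists over the 19 libraries (mitosis, macrophage, contractile smooth muscle, white adipocyte and sympathetic neuron). Permutation p-values, two-sided, were adjusted over all tested genes and the 5 lists, 88018 relations in all, of which 175 concern the members. At an adjusted p under 0.05, Pearson's r called 5 members with mitosis (9.39% of all genes), 3 with macrophage (10.4%), 6 with contractile smooth muscle (19.7%), 7 with white adipocyte (18.7%) and 1 with sympathetic neuron (12.4%). Spearman's rho called 4 (10.0%), 1 (7.45%), 9 (21.4%), 7 (21.5%) and 0 (11.5%) in the same order. Read against these shares over all genes, the counts are no result about the members as a set, and what follows describes single genes.

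**Figure D3:**
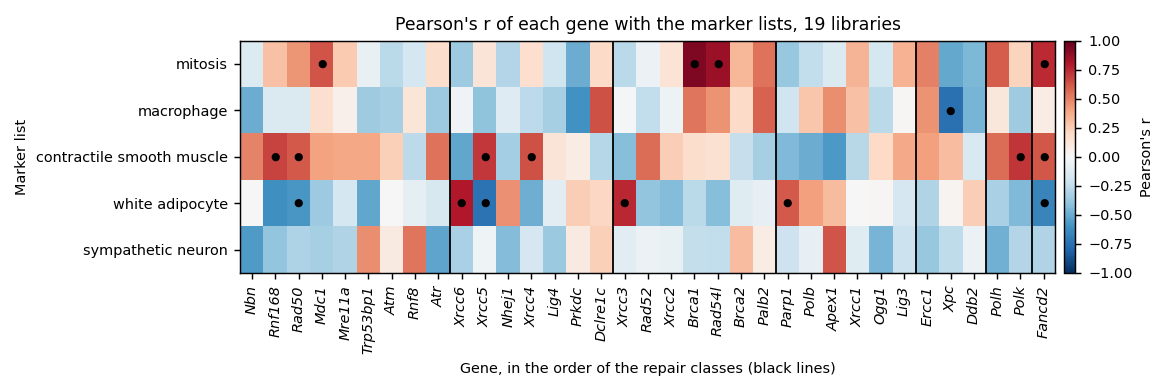
Pearson's r over 19 libraries between the log2 CPM of each member and the mean log2 CPM of each of 5 marker lists, with members grouped by role, color showing the sign and size of r, and dots marking relations called by both r and rho. Brca1 and Rad54l reach 0.93 and 0.86 with mitosis, and along the white adipocyte list Xrcc6 (0.80) and Xrcc5 (-0.74) have opposite signs.

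Brca1 and Rad54l followed the mitotic content of the samples closely. Brca1 had r = 0.93 and Spearman's rho = 0.90 with the mitosis list (25 genes of the spindle and of mitotic entry, none of them a member). Its permutation p was 1e-05, the smallest that 100000 resamples can give, and the adjusted p was 0.00036 for r and 0.00051 for rho. Rad54l had r = 0.86 and rho = 0.87 with the same permutation p and adjusted p-values. Without the 2 libraries farthest from the median of the list (D+1 IR 2 and control 8) r was 0.91 for Brca1 and 0.87 for Rad54l, within the 16 libraries of file series 61 it was 0.92 and 0.88, and with the group means removed it was 0.95 and 0.84. Fancd2 had r = 0.75 (permutation adjusted p = 0.0064) and rho = 0.76 (0.0064), 0.68 without the farthest 2 and 0.63 within file series 61, where it was no longer called (0.075). Mdc1 had r = 0.63 (permutation adjusted p = 0.034) and rho = 0.63 (0.041), 0.63 without the farthest 2 and 0.63 within file series 61, where it was no longer called (0.069). Polh passed by r alone (0.60, adjusted p = 0.046, but rho = 0.57, adjusted p = 0.072).

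None of the 7 end joining genes was called with mitosis (r from -0.50 to 0.19), nor any of the 6 base excision genes (r from -0.38 to 0.35). Over all genes r called 9.39% with this list, so no calls among so few genes is no contrast between classes. The other 5 recombination genes were not called either, and the class median r was 0.33, compared with -0.20 in end joining, -0.16 in base excision repair and -0.05 over all genes. These medians were not tested. With the mitosis list as a covariate, the log2 fold changes of D-3 IR versus D+1 IR went from 0.65 ± 0.37 to 0.10 ± 0.26 for Rad54l and from 0.56 ± 0.40 to -0.22 ± 0.21 for Brca1. Both genes were picked for their r with this list in the same libraries, and the list was measured after irradiation. These changes therefore follow in part from that choice, and their cause was not tested. The mitosis list itself averaged 2.80 ± 1.42, 3.29 ± 0.42 and 2.01 ± 1.17 log2 CPM in control, D-3 IR and D+1 IR aortas. In D-3 IR versus D+1 IR 25 of its 25 genes were above 0, beside 45.4% of all tested genes, and none was called. The irradiated groups overlapped on this list, at 2.87 to 4.05 in D-3 IR and 0.73 to 3.90 in D+1 IR.

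**Figure D4:**
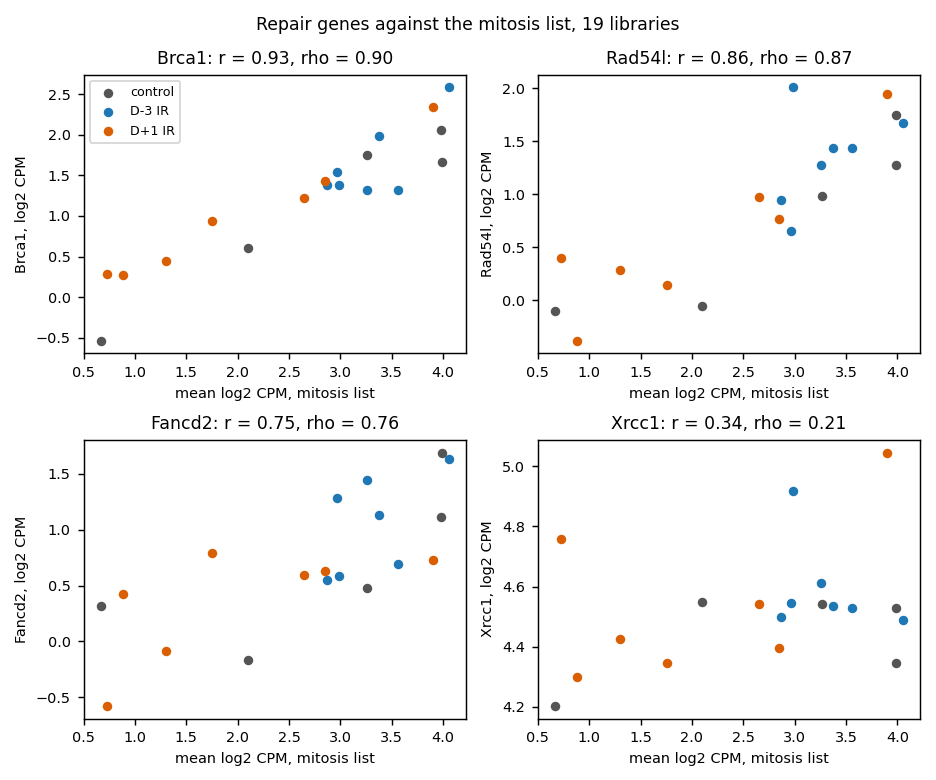
Log2 CPM of Brca1, Rad54l, Fancd2 and, for comparison, Xrcc1 against the mean log2 CPM of the mitosis list, with 1 point per library colored by group. Brca1 (r = 0.93) and Rad54l (r = 0.86) follow the list across all 3 groups, from control 8 (0.67) to D-3 IR 13 (4.05).

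Because these members moved together, the 250 bases before their start were read from RefSeq promoters of build GRCm38.p6, in which 27 of the 35 members were found among 32851 promoters. The windows were searched on both strands for the NF-Y box CCAAT, for the E2F motifs TTTCCCGC, TTTGGCGC, TTTCGCGC and TTTGCCGC, and for the cell cycle homology region (CHR), spelled TTTGAA or, in its variant form, TTCGAA. The NF-Y box was present in 12 of 27 members (44.4%) and in 33.8% of all promoters, an E2F motif in 3 (11.1%, compared with 1.86%) and a CHR in 3 (11.1%, compared with 17.1%). The E2F matches were in Mdc1, Brca2 and Xrcc6, and the CHR matches in Atr, Apex1 and Rnf8. Of these genes only Mdc1 was called with mitosis, and r was 0.33 for Brca2 and -0.36 for Xrcc6. Printed here are the promoters of the 3 members that were called with mitosis by both r and rho and are in the table, 5′ to 3′ in the direction of transcription, with matches in capitals. The members in the table with the next largest r with mitosis, Polh (0.60), Palb2 (0.54) and Ercc1 (0.50), held none of these motifs and are not printed. Brca1 lies at chr11:101551956-101552205 on the minus strand, with CCAAT at 86 to 82 bases before the start. Rad54l lies at chr4:116123691-116123940 on the minus strand, with CCAAT at 50 to 46 bases before the start. Mdc1 lies at chr17:35841248-35841497 on the plus strand, with CCAAT at 75 to 71 and an E2F motif at 16 to 9 bases before the start. A match is a description of letters, not a bound site.
Brca1: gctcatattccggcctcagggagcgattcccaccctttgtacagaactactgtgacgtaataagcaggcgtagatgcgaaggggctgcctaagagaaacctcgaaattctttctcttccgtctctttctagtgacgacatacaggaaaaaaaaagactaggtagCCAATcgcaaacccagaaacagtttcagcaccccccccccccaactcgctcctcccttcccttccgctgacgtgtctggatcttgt
Rad54l: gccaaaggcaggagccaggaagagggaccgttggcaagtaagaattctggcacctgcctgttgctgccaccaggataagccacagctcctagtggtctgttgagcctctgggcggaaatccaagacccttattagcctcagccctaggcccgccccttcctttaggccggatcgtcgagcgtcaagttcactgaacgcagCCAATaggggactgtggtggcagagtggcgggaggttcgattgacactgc
Mdc1: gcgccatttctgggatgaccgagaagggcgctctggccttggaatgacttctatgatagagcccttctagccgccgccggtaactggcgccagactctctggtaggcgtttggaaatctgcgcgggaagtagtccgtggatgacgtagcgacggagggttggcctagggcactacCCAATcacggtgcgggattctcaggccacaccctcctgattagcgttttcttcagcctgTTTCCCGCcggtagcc

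The Ku genes ran in opposite directions along the white adipocyte list. Xrcc6 had r = 0.80 (permutation p = 3e-05, adjusted p = 0.00083) and rho = 0.91 (adjusted p = 0.00051) with the white adipocyte list, 0.84 without the 2 libraries farthest from the median (D+1 IR 2 and control 6), 0.77 within file series 61 and 0.75 with group means removed. Xrcc5 had r = -0.74 (permutation p = 0.00014, adjusted p = 0.0028) and rho = -0.67 (adjusted p = 0.022) with the same list, -0.61 without the farthest 2, -0.66 within file series 61 and -0.69 with group means removed. With the contractile smooth muscle list, Xrcc5 had r = 0.71 (adjusted p = 0.0062) and rho = 0.78 (adjusted p = 0.0037), 0.77 without D+1 IR 20 and D+1 IR 3, the farthest 2, and 0.72 within file series 61. Xrcc6 had r = -0.52 (permutation adjusted p = 0.108) and rho = -0.62 (adjusted p = 0.0398) with the contractile list, so it was called by rho and not by r. Over the libraries the white adipocyte list itself had r = -0.59 with the contractile list, 0.91 with a brown adipocyte list and 0.61 with an endothelial list, so these relations cannot be assigned to white fat alone. Given the contractile list, the partial r with the adipocyte list was 0.72 for Xrcc6 and -0.56 for Xrcc5, and given the adipocyte list, the partial r with the contractile list was -0.10 for Xrcc6 and 0.51 for Xrcc5.

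**Figure D5:**
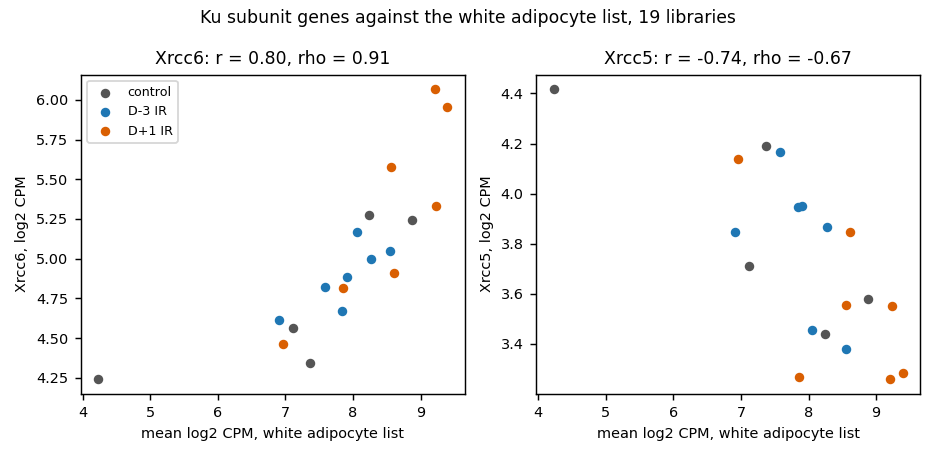
Log2 CPM of Xrcc6 (Ku70) and Xrcc5 (Ku80) versus the mean log2 CPM of the white adipocyte list, with 1 point per library colored by group. Xrcc6 rises with the list (r = 0.80) and Xrcc5 falls (r = -0.74), and control 6, at 4.23, holds the lowest Xrcc6 and the highest Xrcc5.

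The white adipocyte list averaged 7.17 ± 1.78, 7.87 ± 0.53 and 8.55 ± 0.88 log2 CPM in control, D-3 IR and D+1 IR aortas, and the 3 D+1 IR libraries of file series 41 were its highest 3 (9.21, 9.40 and 9.23). Xrcc3 shared the relation with r = 0.75 (permutation p = 6e-05, adjusted p = 0.0014) and rho = 0.76 (adjusted p = 0.0058), 0.66 without the farthest 2 and 0.74 within file series 61. Parp1 (r = 0.62, adjusted p = 0.023, rho = 0.64, adjusted p = 0.032) was also positive, with 0.62 without the farthest 2 and 0.43 within file series 61. Fancd2 (r = -0.66, adjusted p = 0.020, rho = -0.63, adjusted p = 0.036) and Rad50 (r = -0.58, adjusted p = 0.037, rho = -0.63, adjusted p = 0.037) were negative, both -0.49 without the farthest 2, and -0.56 and -0.57 within file series 61. Within that file series the calls of Parp1, Fancd2 and Rad50 were lost (permutation adjusted p = 0.289, 0.123 and 0.0779).

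With the contractile smooth muscle list, r called 6 of 35 members, beside 19.7% of all genes. Of these, Xrcc5, Rad50 and Fancd2 were also called with the white adipocyte list, itself at r = -0.59 with the contractile list. No partial r was computed for Rad50 or Fancd2. Positive relations with the contractile list by both measures were found for Xrcc5, Polk (r = 0.71, rho = 0.61), Rnf168 (r = 0.68, rho = 0.75), Xrcc4 (r = 0.64, rho = 0.60), Rad50 (r = 0.62, rho = 0.73) and Fancd2 (r = 0.62, rho = 0.67), with permutation adjusted p-values from 0.0062 to 0.036 for r. Without D+1 IR 20 and D+1 IR 3, the libraries farthest from the median, r was 0.49 for Polk, 0.67 for Rnf168, 0.56 for Xrcc4, 0.50 for Rad50 and 0.73 for Fancd2. Within file series 61 the values were 0.57, 0.59, 0.59, 0.68 and 0.59, and of these 5 only Rad50 was still called. The contractile list averaged 8.58 ± 0.79, 8.84 ± 0.51 and 7.41 ± 1.22 log2 CPM in control, D-3 IR and D+1 IR aortas. Xpc was the 1 member with a macrophage relation by both measures, at r = -0.75 (permutation adjusted p = 0.0043) and rho = -0.67 (0.022), -0.59 without D+1 IR 20 and control 9 and -0.80 within file series 61. In D+1 IR 20, the library richest in macrophage markers, Xpc was at 9.82 CPM, its lowest value, compared with 14.4 to 21.9 in the other libraries. Apex1 was called by r alone with the sympathetic neuron list (r = 0.63, adjusted p = 0.033, rho = 0.60, adjusted p = 0.051).

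Leaving out each library in turn kept r between 0.92 and 0.94 for Brca1 and between 0.84 and 0.91 for Rad54l with mitosis, between 0.78 and 0.87 for Xrcc6 and between -0.78 and -0.66 for Xrcc5 with white adipocyte, and between 0.70 and 0.81 for Xrcc3. For Xpc with macrophage the range was -0.80 to -0.61. These 6 relations, and that of Xrcc5 with contractile smooth muscle, were called without each library in turn, whereas Mdc1 with mitosis, Parp1, Fancd2 and Rad50 with white adipocyte, and the other 5 contractile relations each lost their call without at least 1 library. Excluding both D-3 IR 10 and D+1 IR 3 gave 0.93 for Brca1, 0.90 for Rad54l, 0.79 for Xrcc6 and -0.74 for Xrcc5.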

How the data were processed

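Aortic poly(A) RNA was sequenced by the authors from a stranded library kit. Reads were mapped to GRCm38 with STAR 2.7.9a after FastQC, per the submitters' processing notes and the study's methods. The deposited values are raw counts of reads per gene, whole numbers without normalization, in 1 table per library. The joined table gave the gene names, and all of its 773262 values compared equaled the unstranded counts of the library tables. Reads in genes were 67.5% to 78.0% of each library, and 49.9% to 50.1% of assigned reads fell on the second strand, so the unstranded counts were used. Reads falling in more than 1 gene were not assigned by this counting.

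Libraries were grouped by their titles, and each mouse gave 1 library. Counts were filtered with filterByExpr and scaled by TMM in edgeR 4.0.16 (R 4.3.3). A model without intercept was fitted to all 19 libraries, and contrasts were tested with quasi-likelihood F-tests, two-sided, with Benjamini-Hochberg adjustment over 17617 genes. Log2 CPM used a prior count of 2. CPM per kilobase used the exon union of each gene. Relations to marker lists were tested with 100000 permutations of the libraries and adjusted over all tested genes and lists. The test code was checked on simulated counts.

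All 35 members are named. Values by library are given for the 2 genes of each role with the smallest p in the test of any difference and for the highest and lowest level of each role, with Brca1 and Xrcc5 added after their values were seen. Up to 3 genes of each further list are named by the same p. Of the 6 promoters chosen by r with mitosis, those overlapping an annotated exon or of members not called by both measures are not printed. Members and lists were chosen with earlier results of these data known.

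Alternatives were DESeq2 1.42.0, limma 3.58.1 with voom weights, other edgeR fits, scaling factors, filters, strand columns, samples and covariates. The adipocyte covariate, the genes of the joined table alone, the partial correlations and the relations without each library were added after seeing the data.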

Additional observations from a re-analysis of the deposited data

Results flagged for a closer look

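In 8 of the 105 groups of 1 member in 1 treatment (7.62%), the highest or lowest library lay apart from the rest of its group by Dixon's criterion at the 95% level, where chance alone sets apart about 1 group in 20. The values are log2 CPM. Library D-3 IR 14 held 3 of them: Trp53bp1 at 3.01 (the other 6 libraries at 3.98 to 4.55), Ddb2 at -0.39 (0.65 to 1.30) and Ercc1 at 5.14 (4.35 to 4.67). Library D-3 IR 10 held 2, with Rnf8 at 3.54 (1.63 to 2.45) and Xrcc1 at 4.92 (4.49 to 4.61), and it was also the library highest in skeletal muscle and lymphocyte markers. In D+1 IR, Trp53bp1 was at 4.98 in library 17 (3.19 to 3.94) and Xpc at 3.30 in library 20 (3.99 to 4.45). In control, Ogg1 was at 2.77 in library 5 (3.00 to 3.09). The cause was not tested.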

How the results depend on the processing

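No paired analysis was possible because the groups share no replicate numbers and every library came from another mouse. The members' log2 fold changes kept their side of the threshold under every alternative run except limma voom, which called Xrcc6 (-0.65, adjusted p = 0.0408) and Fancd2 (0.82, adjusted p = 0.0449) in the comparison of the irradiated groups, among 2298 genes and 2 members where edgeR called none. DESeq2 called 2 genes for D+1 IR versus control, 56 between the irradiated groups and 23 for any difference, and the newer edgeR fit 1 gene for both groups versus control and 1 for any difference. Leaving out each library in turn gave 0 to 1 genes for both groups versus control (1 without control 4, 5, 8 or 9). The pairs of member and marker list called by r, 22 in all, fell to 11 within file series 61 and ranged from 11 (without D+1 IR 3) to 23 without single libraries, with 14 without control 4. Members called with mitosis, 5 in all, fell to 2 within file series 61 and ranged from 3 (without control 4, 8 or 9 or D-3 IR 13) to 5. The cause was not tested. No called value was reversed, but medians that were not called did change sign, among them these: with the mitosis covariate the homologous recombination median for D+1 IR versus control was 0.25, compared with -0.08, the members' median in that comparison ran from -0.07 to 0.03 over the alternatives, and the end joining median between the irradiated groups from -0.16 to 0.01. At an unadjusted p under 0.05, the count of members between the irradiated groups (2) ran from 0 to 10 over the alternatives (10 with limma voom, 0 without file series 41, without D-3 IR 10 and D+1 IR 3, and with the mitosis or white adipocyte covariate) and from 0 to 4 without single libraries (4 without D-3 IR 14 or D+1 IR 20), and that for D+1 IR versus control (1) from 0 to 3 and from 0 to 4 (4 without control 4 or D+1 IR 17). Depth limits Palb2 most, at 18 to 107 reads.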

Other observations

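Other genes of the same pathways were read in the same edgeR tests, from lists of further members by role. None was called at an adjusted p under 0.05 in any comparison. At an unadjusted p under 0.05 between the irradiated groups (11.5% of all genes), 3 of 12 other sensing and checkpoint genes, 2 of 23 other recombination genes, 2 of 19 other base excision genes, 1 of 7 mismatch repair genes, 1 of 12 other Fanconi anemia genes and 1 of 15 p53 target genes passed, and none of 10 other end joining, 20 other nucleotide excision or 8 other translesion genes. These shares are read against that background and no theme was tested. For D-3 IR relative to D+1 IR the log2 fold change (± SE) was 1.07 ± 0.50 for the checkpoint mediator Clspn, 1.17 ± 0.44 for Rad54b, a relative of Rad54l, 0.90 ± 0.30 for the helicase Brip1 and 0.78 ± 0.34 for Ube2t, which ubiquitinates Fancd2. Ube2t was -1.19 ± 0.36 in D+1 IR versus control. Hus1, of the checkpoint clamp, was 0.45 ± 0.17 and the glycosylase Mutyh 0.74 ± 0.26, while the glycosylase Neil2 was -1.46 ± 0.52. Against control, D+1 IR gave -0.45 ± 0.16 for Rad1, of the same clamp as Hus1, -0.41 ± 0.18 for the mismatch repair gene Pms2 and 0.89 ± 0.37 for the uracil glycosylase Ung.

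The p53 target list averaged 4.66 ± 0.26 log2 CPM in the 5 control aortas, 4.76 ± 0.12 with early and 4.85 ± 0.17 with late irradiation (SD). The groups overlapped, and the highest library of all was control 9, at 5.10. Bbc3, which encodes the pro-apoptotic protein Puma, was named among the 15 targets for its small p in the test of any difference. Its log2 fold change was 0.69 ± 0.19 in D+1 IR versus control, and it was not called. The members whose human counterparts are known p53 targets gave 0.36 ± 0.31 (Ddb2), -0.05 ± 0.16 (Xpc) and -0.20 ± 0.20 (Polh) in the same comparison.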
